A study of Mus musculus with 24 samples.

Results

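The genes described are the voltage-gated potassium (Kv) channel genes of the mouse. They were taken by symbol, as the protein-coding genes of the GRCm38 annotation whose names begin with Kcna, Kcnb, Kcnc, Kcnd, Kcnf, Kcng, Kcnh, Kcnq, Kcns or Kcnv and that had at least 24 raw counts in total over the 24 libraries. This gave 41 of the 55385 genes in the count table. Of these, 38 encode pore-forming subunits, and 3 (Kcnab1, Kcnab2 and Kcnab3), which the first prefix also takes in, encode the cytoplasmic Kv beta subunits that attach to Kv1 channels. The minimum left out 2 protein-coding genes, Kcna7 with 18 counts and Kcna10 with 20, and the member nearest to it was Kcnv2 with 34, followed by Kcnq1 with 385. A further 3 genes with a matching prefix are not protein coding and were left out.

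The libraries come from male Ts65Dn mice, a model of Down syndrome, and their male wild-type (wt) littermates, aged 5 to 6 months. Ts65Dn mice carry an extra minichromosome that adds a copy of the Mir155 to Zbtb21 segment of mouse chromosome 16, which corresponds to human chromosome 21, and of the centromeric part of chromosome 17 up to Pde10a, which does not. The line was obtained from The Jackson Laboratory and both genotypes were on a mixed F1 B6C3B background, in which the C3B parent is a C3H/HeN line congenic for the BALB/c allele of Pde6b. No agent was given in either group. The hippocampus (HIP) and the entorhinal cortex (EC) of each mouse were dissected, flash frozen and sequenced separately, so that 6 Ts65Dn and 6 wt mice gave 24 libraries, each from 1 mouse and 1 region. The tissue is whole HIP or EC, so that fewer cells of a type and less RNA per cell cannot be told apart in any value given here. Of the 41 genes, 0 lie in a triplicated segment.

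Kv channels open when the membrane depolarizes and let potassium leave the cell, which ends the action potential, sets the spacing of spikes and limits how often a neuron can fire. The pore-forming subunits fall into families that assemble among themselves. These are Kv1 (Kcna) on axons, Kv2 (Kcnb) on cell bodies and proximal dendrites, Kv3 (Kcnc) in fast-spiking cells, Kv4 (Kcnd) in dendrites, Kv7 (Kcnq), which carries the M-current that brakes repetitive firing, and Kv10 to Kv12 (Kcnh), the relatives of ether-a-go-go. The Kcnf, Kcng, Kcns and Kcnv genes encode silent subunits, which make no channel alone and change the properties of the Kv2 channels they join. In the HIP, the transient A-type current of pyramidal cell dendrites is carried mainly by Kv4 channels together with their auxiliary KChIP and DPP proteins.

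The total count per library ranged from 23128589 to 40476492, and the 41 genes held 0.372% to 0.4504% of it. Levels are given as CPM, a gene's counts per 1000000 counts of its library after TMM scaling of the library's size, and, where genes are compared with each other, as FPKM, the CPM divided by the length of the gene's exons in kilobases. The genotype labels were checked on triplicated genes, by each library's median ratio to the mean of wt libraries. In the HIP (135 genes) it was 1.46 to 1.51 in the Ts65Dn libraries other than replicate 3 and 0.985 to 1.01 in wt libraries. In the EC (132 genes) it was 1.46 to 1.52 and 0.983 to 1.01. The libraries labelled Ts65Dn replicate 3 had 1.01 in the HIP and 0.990 in the EC, within or next to the wt range. That mouse keeps its label here, and counts of calls and the main Ts65Dn values are also given without it. In the EC it was the highest of the 6 Ts65Dn libraries for 19 of 40 Kv genes, where the others were for 2 to 7, and wt replicate 2 was the lowest of the 6 wt libraries for 16 of 40, where the others were for 2 to 10. In the HIP, wt replicate 4 was the lowest of the 6 wt libraries for 19 of 40 genes, where the others were for 2 to 9. This HIP library also had the lowest sums of 6 interneuron markers (687 CPM against 811 to 942 in the other wt libraries) and of 6 cortical projection neuron markers (141 CPM against 168 to 241). The regions matched their labels, since 6 markers of dentate granule and CA neurons summed to 459.9 to 572 CPM in the wt HIP and 54.0 to 69.1 CPM in the wt EC, and the cortical projection neuron markers to 141 to 241 CPM and 615 to 766 CPM.

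Per length, Kcnab2 was the most abundant of the 41 genes in each of the 4 groups, with 139 FPKM ± 9.92 (SD, n = 6) in the wt HIP and 79.6 FPKM ± 6.58 (SD, n = 6) in the wt EC. It encodes a beta subunit of axonal Kv1 channels. The pore-forming gene that followed it in the wt HIP was Kcnd2 (39.9 FPKM ± 1.15), which encodes the main dendritic A-type channel. The order was another one in the wt EC, where Kcnf1 (51.6 FPKM ± 6.52) and Kcnv1 (37.0 FPKM ± 3.38), both silent subunits, came next. Kcnv2, a subunit known from photoreceptors, was the lowest in each of the 4 groups, with a mean of 0.00685 FPKM ± 0.00608 in the wt HIP and 0.00239 FPKM ± 0.00586 in the wt EC. It was the one gene of the 41 that the filter on low counts left out of the tests, so that 40 were tested in each comparison.

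**Figure D1:**
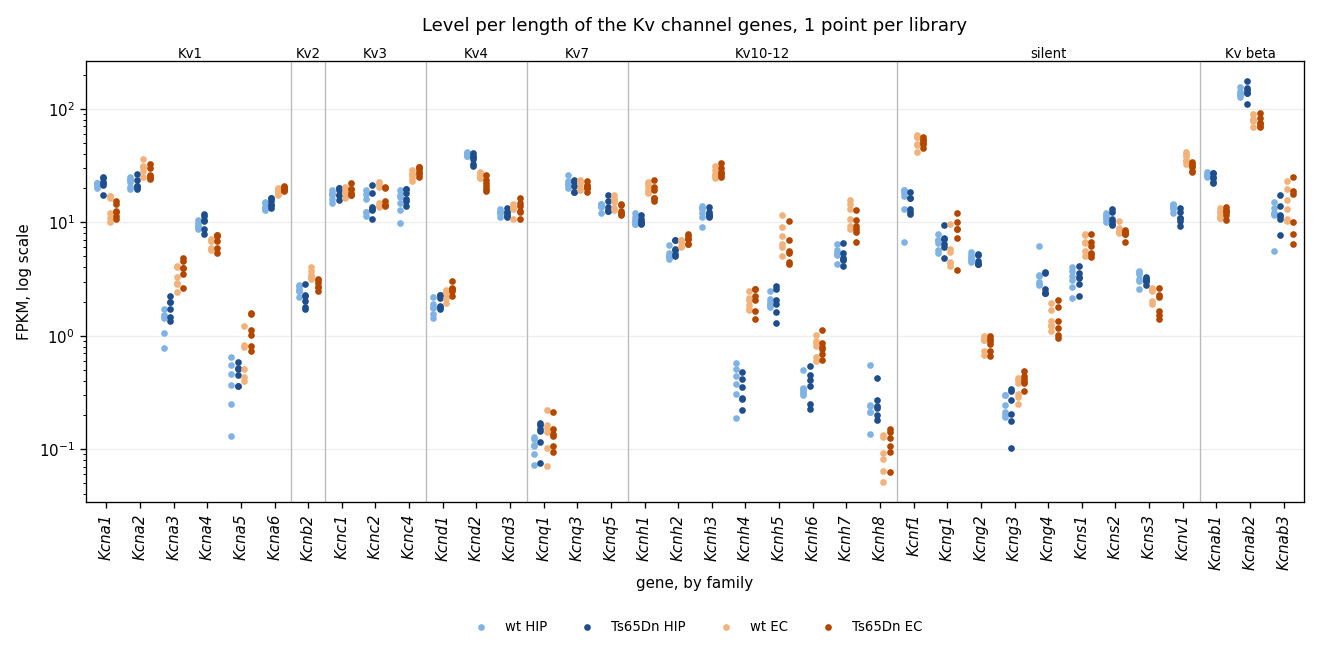
Level per length (FPKM, log axis) of 36 Kv channel genes in each of the 24 libraries, 1 point per library, with genes grouped by family and the 4 groups of 6 libraries in colours. Kcnv2, at 0 in part of the libraries, is not drawn. Kcnab2 lies at the top and Kcnq1, Kcng3 and Kcnh8 at the bottom, and the HIP and EC points lie apart in genes such as Kcnf1, Kcnv1, Kcng2 and Kcnh4.

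The makeup of the pore-forming set differed between the regions. Summed over the 38 genes, the level was 382 FPKM ± 20.1 in the wt HIP (354 to 400.1) and 482 FPKM ± 23.4 in the wt EC (438 to 504), and the ranges did not overlap. In the wt HIP the largest share of the sum was held by Kv7 genes (19.2% ± 0.918), followed by Kv1 (18.1% ± 0.476) and Kv3 (17.9% ± 1.07). These families make up the M-current, the axonal channels and the channels of fast spiking. In the wt EC silent subunits held the largest share (23.8% ± 1.78), against 16.2% ± 0.686 in the HIP. This rested on Kcnf1 (51.6 FPKM in the wt EC and 15.6 FPKM in the wt HIP) and Kcnv1 (37.0 and 13.6 FPKM). The other silent genes had at most 8.73 FPKM in the wt EC (Kcns2). Of these, Kcns1 and Kcng3 had higher means in the EC than in the HIP, and Kcng1, Kcng2, Kcng4, Kcns2, Kcns3 and Kcnv2 lower ones. Kv2 genes, the partners of silent subunits, held 6.58% ± 0.488 in the EC and 4.97% ± 0.168 in the HIP. Kv4 genes held 14.1% ± 0.945 of the HIP sum and 8.56% ± 0.347 of the EC sum, and Kcnh genes 9.50% ± 0.671 and 15.9% ± 1.17. The ranges of wt HIP and wt EC libraries did not overlap for any of these 7 shares but that of Kv3. In Ts65Dn mice silent subunits held 15.1% ± 0.807 in the HIP and 23.3% ± 1.63 in the EC, Kv4 genes 13.1% ± 0.716 and 8.11% ± 0.336, and Kcnh genes 9.54% ± 0.369 and 15.5% ± 1.51. Without replicate 3 these shares were 15.2% ± 0.881 and 23.9% ± 1.08, 13.3% ± 0.576 and 8.23% ± 0.183, and 9.42% ± 0.263 and 15.0% ± 1.02. Shares of one sum are not independent of each other, and they are given without a test.

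The first comparison asks how HIP and EC of the same mice differ. It was tested within each genotype with edgeR's quasi-likelihood test on raw counts, with a term for each mouse, and a gene is called here when its Benjamini-Hochberg adjusted p, over all genes tested, is under 0.05. In wt mice, 12 of 40 Kv genes were higher in the HIP, where 31.0% of all genes tested were, and 22 of 40 were lower, where 30.3% of all genes tested were. The median log2 fold change of HIP over EC was -0.39 over the Kv genes and 0.00 over all genes. In Ts65Dn mice, 12 of 40 were higher (26.6% of all genes tested) and 22 of 40 lower (25.7% of all genes tested), with a median of -0.26. The 34 genes called in wt mice were the 34 called in Ts65Dn mice, each with the same sign. Without the mouse labelled Ts65Dn replicate 3 the counts in Ts65Dn mice were 12 and 23, and without wt replicate 4 those in wt mice were 12 and 22. The share of all genes whose libraries did not overlap between the regions is not given. A lack of overlap below thus only describes the values of the gene named.

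**Figure D2:**
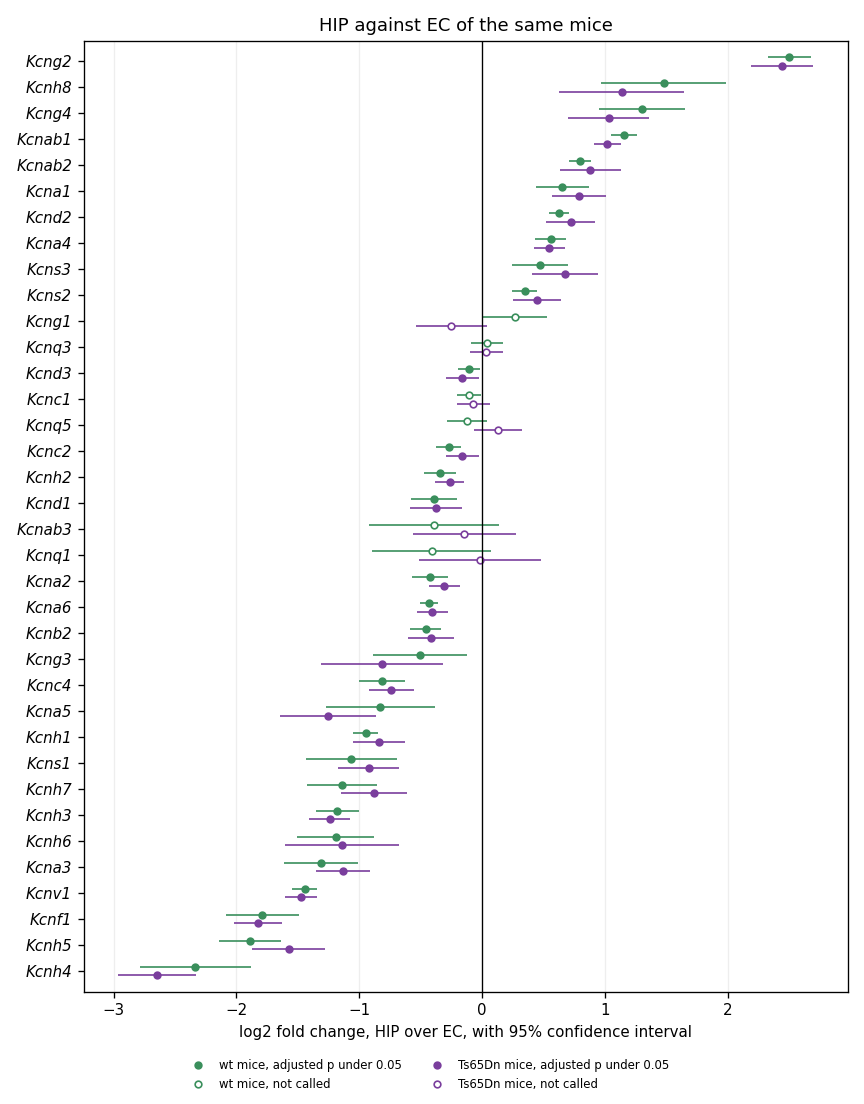
Log2 fold change of HIP over EC with its 95% confidence interval for 36 Kv channel genes in 6 wt and 6 Ts65Dn mice, ordered by the value in wt mice, with filled points for an adjusted p under 0.05 in edgeR's quasi-likelihood test. The values run from Kcng2 (2.50 in wt mice) at the top to Kcnh4 (-2.34 in wt mice) at the bottom, and in wt mice 24 of the 36 lie to the left of 0.

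The Kcnh family lay furthest towards the EC (median -1.16 in wt mice). In wt mice 7 of its 8 genes were lower in the HIP and 1 higher, and in Ts65Dn mice the counts were the same. Of all genes tested, 30.3% were lower and 31.0% higher in the HIP of wt mice. Kcnh4, for a Kv12 channel of the Elk group, had 0.745, 1.63 and 2.26 CPM (lowest, median and highest of 6) in the wt HIP and 6.65, 7.80 and 9.85 CPM in the wt EC. No HIP library reached an EC library, and the log2 fold change of HIP over EC was -2.34 ± 0.203 SE (adjusted p = 3.95e-06, edgeR), and -2.64 ± 0.143 SE in Ts65Dn mice (-2.69 without replicate 3). Kcnh5, of the same group as ether-a-go-go itself, had 7.19, 7.78 and 9.97 CPM in the wt HIP and 20.4, 28.3 and 47.0 CPM in the wt EC (log2 fold change -1.89 ± 0.115 SE). Kcnh1, its close relative, had 70.0, 75.6 and 87.7 CPM in the HIP and 132, 148 and 166 CPM in the EC (log2 fold change -0.95 ± 0.0463 SE). Kcnh7, of the ERG group whose channels close slowly, had 65.7, 80.9 and 97.5 CPM in the HIP and 133, 181 and 241 CPM in the EC (log2 fold change -1.14 ± 0.128 SE). The wt HIP and EC libraries did not overlap for any of these 4 genes. Counts of the overlapping genes Gca and Mcrs1, on the opposite strand, came to 10.6% of those of Kcnh7 and 33.1% of those of Kcnh3, and the strand setting of the counting is not given in the sources used here.

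Kcnh8 was the one gene of this family that was higher in the HIP. Its level was low, with 0.6253, 1.03 and 2.54 CPM in the wt HIP and 0.233, 0.397 and 0.605 CPM in the wt EC, and the HIP was higher in 6 of 6 wt mice (log2 fold change 1.48 ± 0.229 SE, adjusted p = 0.000256, edgeR). The highest HIP value was that of wt replicate 4, and without that mouse the log2 fold change was 1.30 (adjusted p = 0.00107, edgeR). In Ts65Dn mice it was 1.14 ± 0.229 SE, with 0.826, 1.07 and 1.94 CPM in the HIP and 0.289, 0.526 and 0.684 CPM in the EC. The highest of these HIP values was that of replicate 3, and without that mouse the log2 fold change was 1.03 (adjusted p = 0.00800, edgeR). Kcnh3, a more abundant Kv12 gene, was lower in the HIP like Kcnh4. It had 52.0, 72.9 and 80.4 CPM in the wt HIP and 140.4, 153 and 181 CPM in the wt EC. Kcnh4 and Kcnh8 both encode Kv12 channels as well, so these close relatives lay on opposite sides between the regions. The 250 bases before the RefSeq start of each, in the direction of transcription, are shown to set the pair side by side (GRCm38.p6). In the GENCODE annotation used for gene coordinates, Kcnh4 begins at 100759942, so part of its stretch lies inside the gene there. Kcnh8 begins at 52602709 in GENCODE, next to the end of its stretch. Kcnh4 is read from chr11:100759779-100760028 (minus strand) and Kcnh8 from chr17:52602459-52602708 (plus strand), and capitals mark GGGCGG, the core of a GC box, or its reverse complement CCGCCC.
Kcnh4: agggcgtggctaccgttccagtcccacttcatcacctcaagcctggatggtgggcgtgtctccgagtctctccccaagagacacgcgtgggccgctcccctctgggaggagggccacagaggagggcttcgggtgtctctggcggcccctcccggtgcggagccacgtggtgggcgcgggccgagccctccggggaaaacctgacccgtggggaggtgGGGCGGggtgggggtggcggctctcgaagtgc
Kcnh8: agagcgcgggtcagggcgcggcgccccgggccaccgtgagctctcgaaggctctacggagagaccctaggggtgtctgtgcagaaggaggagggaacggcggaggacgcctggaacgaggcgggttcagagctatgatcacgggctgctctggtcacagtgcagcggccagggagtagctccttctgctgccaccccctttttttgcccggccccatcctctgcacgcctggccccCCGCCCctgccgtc

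Each of these windows holds 1 such GC box, and neither TATAAA nor CCAAT on either strand. The window of Kcnh4 also holds 1 CACGTG, and that of Kcnh8 holds 0. In the RefSeq windows of 300 bases (250 before and 50 after a start), 34 windows of 25 Kv genes were matched by symbol. Some genes gave several windows, and those of Kcnc2 overlap in part, so the 34 are not independent. Kv genes without a matched window are not covered. GGGCGG was found, on either strand, in 58.8% of these 34 windows and in 35.7% of all 32851 windows. TATAAA was found in 2.94% and 13.6%, CCAAT in 23.5% and 37.4%, CACGTG (the E-box) in 8.82% and 7.15%, and TGACGTCA (the cyclic AMP response element) in 0 of 34 and 1.79%. The median GC content was 63.3% in the Kv windows and 52.7% in all windows, and the median number of CG dinucleotides 18 and 7. A match of letters is not a site. The windows of Kcnh4 and Kcnh8 had 68.7% and 66% GC.

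Silent subunits split evenly, with 4 of 9 tested higher and 4 of 9 lower in the HIP of wt mice. Of all genes tested, 31.0% were higher and 30.3% lower. Kcng2 had the largest log2 fold change towards the HIP of the 40 genes, with 13.4, 14.5 and 16.4 CPM in the wt HIP and 2.01, 2.76 and 2.97 CPM in the wt EC (log2 fold change 2.50 ± 0.0800 SE, adjusted p = 7.23e-09, edgeR), a 5.66-fold difference. In Ts65Dn mice it had 12.7, 13.2 and 15.6 CPM and 1.97, 2.61 and 2.98 CPM (log2 fold change 2.44 ± 0.114 SE, and 2.49 without replicate 3), and HIP and EC libraries lay apart in both genotypes. Counts of D330025C20Rik and Gm26676, which overlap Kcng2 on the opposite strand, came to 7.201% and 2.69% of its own over the 24 libraries. Kcng4 had 10.6, 12.1 and 23.4 CPM in the wt HIP and 4.15, 4.94 and 7.46 CPM in the wt EC (log2 fold change 1.30 ± 0.157 SE). The highest HIP value was again that of wt replicate 4, and without that mouse the log2 fold change was 1.12. Kcng2 and Kcng4 both encode Kv6 subunits, which shift the voltage at which Kv2 channels inactivate. Kcns2, a Kv9 subunit gene, differed less, with 55.8, 62.2 and 67.3 CPM in the HIP and 44.9, 47.0 and 57.7 CPM in the EC (log2 fold change 0.35 ± 0.0471 SE) in ranges that overlapped, although the HIP was higher in 6 of 6 wt mice.

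In the other direction, Kcnf1 had 32.4, 84.3 and 93.0 CPM in the wt HIP and 199, 251 and 279.7 CPM in the wt EC (log2 fold change -1.79 ± 0.134 SE). The lowest HIP value was that of wt replicate 4, without which the log2 fold change was -1.63. Kcnf1 encodes the Kv5 subunit. Kcnv1, for a Kv8 subunit that reduces Kv2 currents, had 55.7, 63.7 and 65.9 CPM in the HIP and 149, 169 and 191 CPM in the EC (log2 fold change -1.44 ± 0.0458 SE, adjusted p = 7.23e-09, edgeR). Kcns1, another Kv9 gene, had 5.79, 8.80 and 11.04 CPM in the HIP and 13.6, 18.03 and 21.4 CPM in the EC (log2 fold change -1.07 ± 0.166 SE). For none of these 3 genes did a wt HIP library reach a wt EC library. Kcnb2, a Kv2 gene and so a partner of silent subunits, had 33.1, 38.6 and 42.3 CPM in the wt HIP and 47.8, 51.2 and 61.1 CPM in the wt EC (log2 fold change -0.46 ± 0.0561 SE), and the groups did not overlap.

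**Figure D3:**
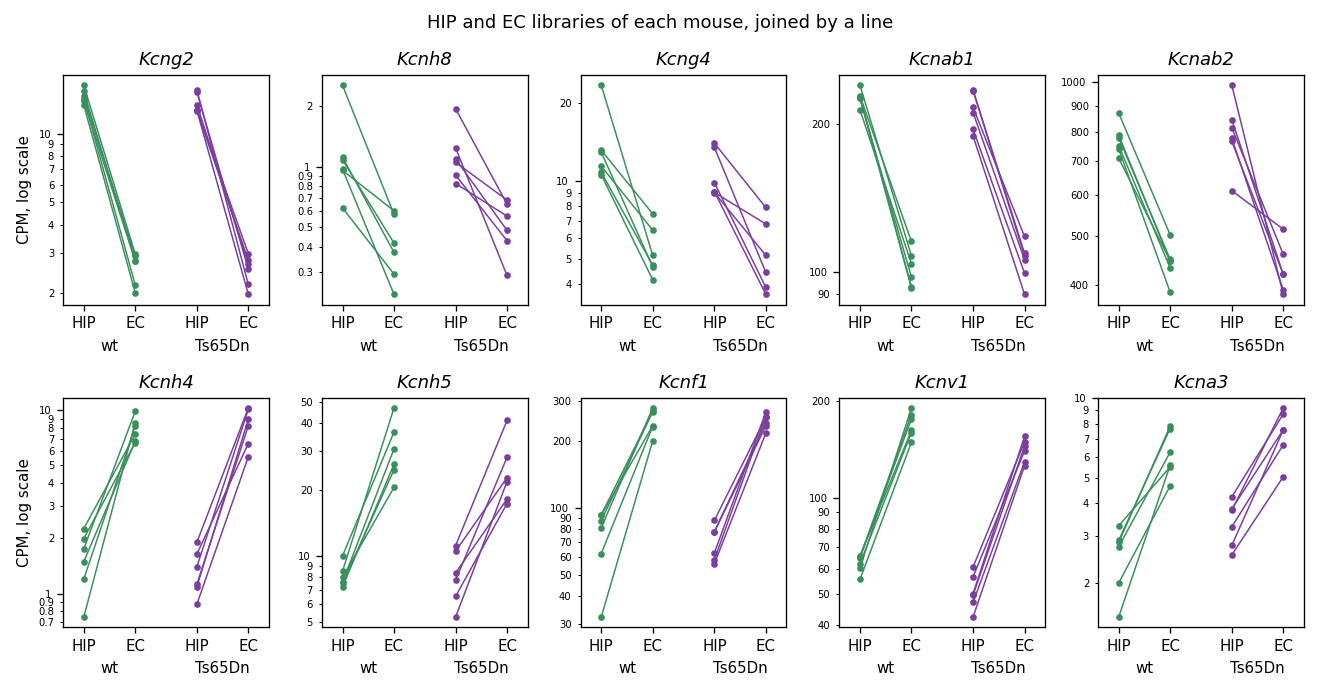
CPM (log axis) of the HIP and EC library of each of 6 wt and 6 Ts65Dn mice, joined by a line per mouse, for the 5 Kv genes with the largest positive (top) and the 5 with the largest negative (bottom) log2 fold change of HIP over EC in wt mice. The line falls from HIP to EC in 12 of 12 mice for each gene of the top row and rises in 12 of 12 for each gene of the bottom row.

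Axonal Kv1 genes were divided between the regions, with 2 of 6 higher and 4 of 6 lower in the HIP of wt mice. The shares of all genes tested were 31.0% and 30.3%. Kcna1 had 95.7, 104 and 107 CPM in the wt HIP and 48.3, 67.9 and 82.0 CPM in the wt EC (log2 fold change 0.65 ± 0.0975 SE). Kcna2, with which it shares channels beside the nodes of Ranvier, lay on the other side, with 233, 275 and 295 CPM in the HIP and 296, 365 and 426 CPM in the EC (log2 fold change -0.43 ± 0.0658 SE). Kcna4, the Kv1 gene with fast inactivation, had 41.7, 44.7 and 51.0 CPM in the HIP and 27.7, 31.1 and 34.6 CPM in the EC (log2 fold change 0.56 ± 0.0572 SE). Kcna3, also known from T cells and microglia, had 1.49, 2.79 and 3.29 CPM in the HIP and 4.65, 5.90 and 7.82 CPM in the EC (log2 fold change -1.31 ± 0.135 SE). The wt HIP and EC libraries did not overlap for any of these 4 genes. Of the beta subunits, 2 of 3 were higher in the HIP of wt mice, where 31.0% of all genes tested were. Kcnab1 had 214, 227 and 240.0 CPM in the wt HIP and 92.8, 101 and 115 CPM in the wt EC (log2 fold change 1.16 ± 0.0469 SE, adjusted p = 3.11e-08, edgeR). Kcnab2 had 709, 765 and 870.2 CPM and 387, 446 and 502 CPM (log2 fold change 0.80 ± 0.0391 SE), again without overlap. Markers of oligodendrocytes, the myelinating cells, moved with the region as well, since 6 of 6 were higher in the HIP of wt mice (6698 to 9160.2 CPM in sum in the HIP and 1386 to 2707 CPM in the EC, with 0 of 6 at 0). Microglial markers were lower (5 of 5, 263 to 299 CPM and 289 to 398 CPM). Of 6 striatal neuron markers, 4 were lower and 1 higher in the HIP (63.6 to 82.1 CPM and 172 to 200.3 CPM in sum). Of 6 cortical projection neuron markers, 5 were lower and 0 higher. Choroid plexus markers were higher (5 of 5, 87.6 to 4829.5 CPM and 11.7 to 49.2 CPM). The part of any of these markers in the Kv values of either region was not tested.

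Of the Kv3 genes, 3 of 4 were called between the regions of wt mice, where 61.3% of all genes tested were. Kcnc2, a channel gene of parvalbumin interneurons, had 80.8, 101 and 138 CPM in the HIP and 96.7, 127 and 160.4 CPM in the EC (log2 fold change -0.27 ± 0.0453 SE), in overlapping ranges and lower in the HIP in 6 of 6 mice. In both regions wt replicates 1, 2 and 5 lay below wt replicates 3, 4 and 6. They had 80.8 to 88.7 CPM against 114 to 138 CPM in the HIP. In the EC the values were 96.7 to 106 CPM against 147 to 160.4 CPM. This split between mice was not tested. Kcnc1, the partner of Kcnc2 in the same cells, had 139, 167 and 181 CPM and 154, 173 and 193 CPM and was not called (log2 fold change -0.11 ± 0.0437 SE, adjusted p = 0.0549, edgeR). Of 6 interneuron markers, 3 were lower and 0 higher in the HIP (687 to 942 CPM in sum in the HIP and 939 to 1061 CPM in the EC of wt mice, with 0 of 6 at 0), and their part in the Kv3 values was not tested.

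Of the Kv4 genes, 1 of 3 was higher and 2 of 3 were lower in the HIP of wt mice. The shares of all genes tested were 31.0% and 30.3%. Kcnd2, for the dendritic A-type current, had 199, 207 and 214 CPM in the wt HIP and 126, 131 and 142 CPM in the wt EC (log2 fold change 0.63 ± 0.0367 SE, adjusted p = 2.65e-07, edgeR), without overlap. In Ts65Dn mice its log2 fold change was 0.72 ± 0.0890 SE, and 0.77 without replicate 3. Kcnd3, its relative that is prominent in interneurons, had 107, 117 and 125 CPM in the HIP and 103, 128 and 139 CPM in the EC. It was just past the threshold (log2 fold change -0.10 ± 0.0410 SE, adjusted p = 0.0467, edgeR), and 2 of the 6 fits with 1 wt mouse left out still called it.

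Among the Kv7 genes, Kcnq3, an M-channel subunit gene, had 295, 321 and 380.4 CPM in the HIP and 282, 325 and 347 CPM in the EC. The log2 fold change of Kcnq3 was 0.04, with a 95% confidence interval from -0.09 to 0.17. Kcnq5, a further M-current gene, had 92.9, 109 and 111 CPM and 98.1, 119 and 134 CPM and was not called (log2 fold change -0.13 ± 0.0735 SE, adjusted p = 0.163, edgeR). Counts of the pseudogene Gm7658 inside it came to 7.50% of its own. Kcnq1 had few counts, and its antisense partner Kcnq1ot1 held 1036% of them, so that no direction is read for it.

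The second comparison asks how Ts65Dn mice differ from wt mice within each region, which was tested on 6 against 6 libraries. In the HIP, edgeR's quasi-likelihood test called 0 of 40 Kv genes, where 1.04% of all genes tested were called, and 5 of 40 had an unadjusted p under 0.05, where 14.8% of all genes tested had. The median log2 fold change of Ts65Dn over wt was 0.01 over the Kv genes and 0.00 over all genes. DESeq2 called 2 of them, Kcnv1 included. Without the mouse labelled Ts65Dn replicate 3, 0 were called and 5 had an unadjusted p under 0.05. In the EC, 3 of 40 were called, where 2.50% of all genes tested were called, and 8 of 40 had an unadjusted p under 0.05, where 19.0% of all genes tested had. Without the mouse labelled Ts65Dn replicate 3, 1 was called in the EC (Kcnb2), and 13 had an unadjusted p under 0.05. Without wt replicate 2, 2 were called there (Kcnb2 and Kcnv1). The share over all genes is not given for DESeq2 or for fits with other settings or fewer mice, in any comparison. Counts from such fits are therefore not read as particular to Kv genes. Both regions share their mice but no library.

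**Figure D4:**
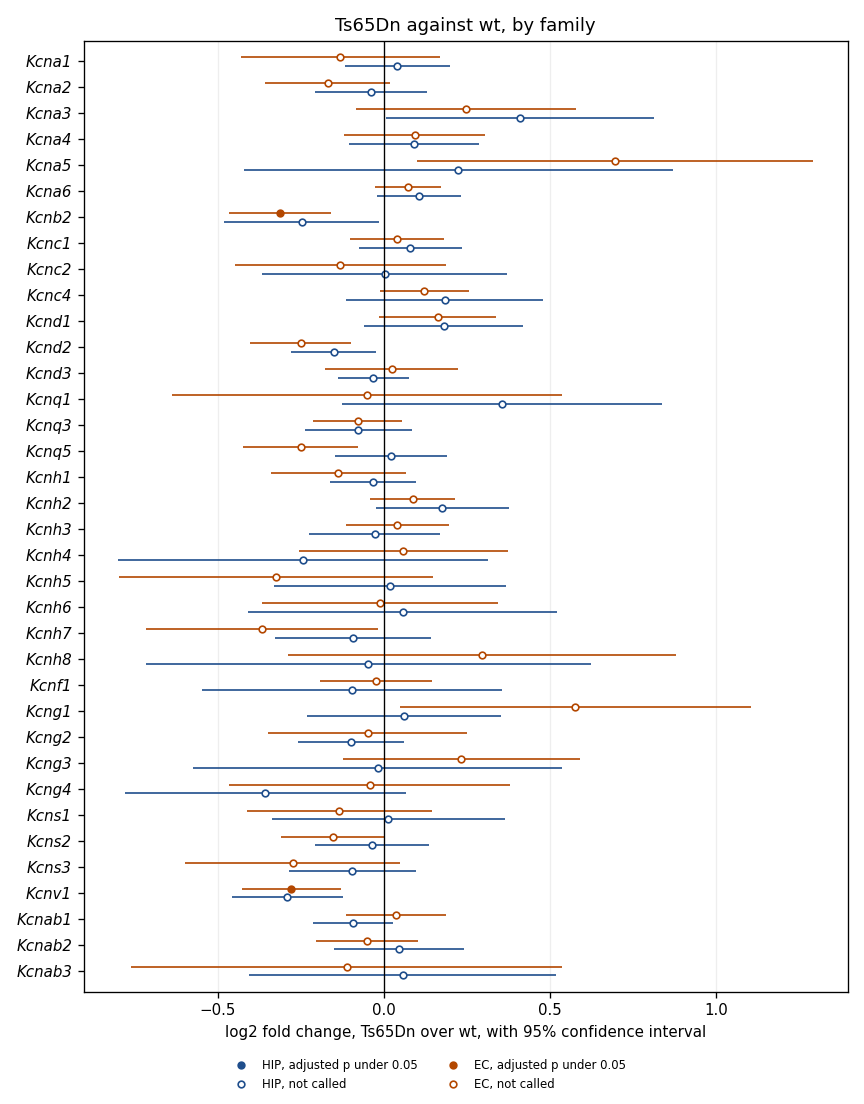
Log2 fold change of Ts65Dn over wt with its 95% confidence interval for 36 Kv channel genes in the HIP and the EC, by family, with filled points for an adjusted p under 0.05 in edgeR's quasi-likelihood test. Filled points are the EC values of Kcnb2 (-0.31) and Kcnv1 (-0.28), and the HIP values of these genes lie on the same side of 0.

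Among the genes called in the EC were Kcnb2 (chr1:15287254-15723750, plus strand) and Kcnv1 (chr15:45106284-45114920, minus strand), with coordinates in GRCm38, both lower in Ts65Dn mice. Kcnb2 encodes a Kv2 channel. In the EC it had 47.8, 51.2 and 61.1 CPM in wt and 37.8, 42.6 and 48.1 CPM in Ts65Dn mice. The highest Ts65Dn library, that of replicate 3, lay above the lowest wt library, so the groups overlapped. Without replicate 3 the highest Ts65Dn library had 46.7 CPM, below the lowest wt library. The log2 fold change was -0.31 ± 0.0722 SE (adjusted p = 0.0377, edgeR), a level 1.24-fold lower. In the HIP Kcnb2 had 33.1, 38.6 and 42.3 CPM in wt and 26.3, 32.3 and 43.0 CPM in Ts65Dn mice, a log2 fold change of -0.25 ± 0.108 SE that was not called (adjusted p = 0.309, edgeR). The highest Ts65Dn library was that of replicate 3 in both regions. Without that mouse the log2 fold change was -0.34 in the EC (adjusted p = 0.0243, edgeR) and -0.34 in the HIP (adjusted p = 0.0686, edgeR).

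Kcnv1, for the Kv8 subunit, had 149, 169 and 191 CPM in the wt EC and 126, 143 and 155 CPM in the Ts65Dn EC, in ranges that overlapped. Its log2 fold change was -0.28 ± 0.0696 SE (adjusted p = 0.0494, edgeR). In the HIP it had 55.7, 63.7 and 65.9 CPM in wt and 42.5, 49.98 and 60.9 CPM in Ts65Dn mice, and its log2 fold change of -0.29 ± 0.0777 SE was not called (adjusted p = 0.0996, edgeR). The lowest Ts65Dn library in each region was that of replicate 3, in which triplicated genes were at the wt level. Without that mouse the log2 fold change was -0.25 in the EC (adjusted p = 0.0688, edgeR) and -0.24 in the HIP (adjusted p = 0.103, edgeR).

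With all mice, the libraries of the 2 genotypes did not overlap in CPM for 1 of 40 Kv genes in the EC, which held for 2.46% of all genes tested there. In the HIP this was so for 0 of 40, where it held for 1.67% of all genes tested. These counts are not given without the mouse labelled Ts65Dn replicate 3.

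**Figure D5:**
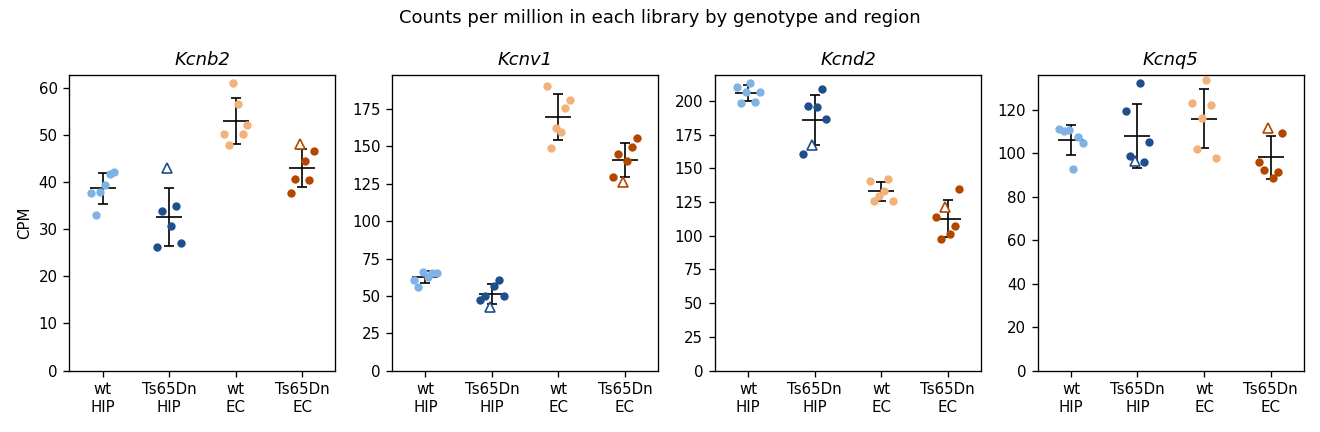
CPM of Kcnb2, Kcnv1, Kcnd2 and Kcnq5 in each of the 24 libraries by genotype and region, with a dash and bars for the mean and SD of 6 libraries and open triangles for the mouse labelled Ts65Dn replicate 3. The EC points of Kcnb2 reach from 37.8 to 48.1 in Ts65Dn mice and from 47.8 to 61.1 in wt mice. The EC groups overlap for each of the 4 genes, and for Kcnb2 only through replicate 3.

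These calls were close to the threshold. With 1 mouse left out at a time, Kcnb2 in the EC was called in 3 of 12 fits (adjusted p from 0.0243 to 0.0941) and Kcnv1 in 2 of 12 (0.0300 to 0.120), both with edgeR. With the trend on GC content and length removed, none of the 3 was called, and the log2 fold change was -0.16 for Kcnb2 (adjusted p = 0.365, edgeR) and -0.17 for Kcnv1 (adjusted p = 0.189, edgeR). With no filter on low counts Kcnv1 was no longer called (log2 fold change -0.28, adjusted p = 0.0586, edgeR). With a block for the replicate number, none of the 3 was called either. DESeq2 called 5 genes in the EC, among them Kcnb2, Kcnv1, Kcnd2 and Kcnq5. In the EC 5 astrocyte markers summed to 1346 to 1739 CPM in wt and 1112 to 1481 CPM in Ts65Dn mice (0 of 5 called, 3 of 5 with an unadjusted p under 0.05), 6 striatal neuron markers to 172 to 200.3 CPM and 161 to 243 CPM (1 of 6 called, higher), and 5 microglial markers to 289 to 398 CPM and 274 to 355 CPM (1 of 5 called, lower), with none at 0. The 5 erythroid markers summed to 139 to 545 CPM in wt and 105 to 300.1 CPM in Ts65Dn mice, with a median log2 fold change of -0.73 and none at 0 (0 of 5 called, 3 of 5 with an unadjusted p under 0.05). The part of these markers in the values of the Kv genes was not tested.

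Below the threshold, Kcnd2 had 126, 131 and 142 CPM in the wt EC and 97.4, 110.3 and 134 CPM in the Ts65Dn EC (log2 fold change -0.25 ± 0.0712 SE, adjusted p = 0.0757, edgeR). In the HIP, where it serves the dendritic A-type current, it had 199, 207 and 214 CPM in wt and 161, 191 and 208 CPM in Ts65Dn mice (log2 fold change -0.15 ± 0.0590 SE, adjusted p = 0.256, edgeR). Kcnq5 had 98.1, 119 and 134 CPM in the wt EC and 88.6, 94.2 and 112 CPM in the Ts65Dn EC (log2 fold change -0.25 ± 0.0810 SE, adjusted p = 0.112, edgeR) and was at 0.02 ± 0.0791 SE in the HIP. The groups overlapped for both genes in each region. With Ts65Dn replicate 3 left out, the EC values were -0.27 for Kcnd2 (adjusted p = 0.0693, edgeR) and -0.29 for Kcnq5 (adjusted p = 0.0757, edgeR). Among the axonal genes, Kcna1 was at 0.04 ± 0.0733 SE in the HIP and -0.13 ± 0.140 SE in the EC, and Kcna2 at -0.04 ± 0.0784 SE and -0.17 ± 0.0880 SE. Kcna5, which had the largest log2 fold change of the 40 genes in the EC (0.70 ± 0.279 SE), was low, with 1.14, 1.87 and 3.51 CPM in wt and 2.08, 3.06 and 4.56 CPM in Ts65Dn mice, and was not called (adjusted p = 0.192, and 0.156 without replicate 3, edgeR). In the HIP 5 choroid plexus markers ranged from 87.6 to 4829.5 CPM in sum among wt and from 52.1 to 5078 CPM among Ts65Dn libraries, with none at 0, and their part in the values was not tested.

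The third comparison asks whether the genotype difference itself depended on the region, by the genotype by region term in one fit of all 24 libraries with a term for each mouse. With edgeR's quasi-likelihood test 0 of 40 Kv genes were called, as were 0.00% of all genes tested, and DESeq2 also called 0 of 40. At an unadjusted p under 0.05 there was 1 of 40 by edgeR, where 4.10% of all genes tested had such a p, and 2 of 40 by DESeq2. There were 4 of 40 by edgeR without the mouse labelled Ts65Dn replicate 3, and 0 were called. The gene with the lowest p by edgeR was Kcng1, a Kv6 subunit gene, with 18.4, 22.3 and 43.4 CPM in the wt EC and 17.2, 39.3 and 54.4 CPM in the Ts65Dn EC. In the HIP it had 23.96, 30.6 and 35.5 CPM in wt and 22.0, 30.5 and 43.0 CPM in Ts65Dn mice, and the groups overlapped in each region. The Ts65Dn over wt log2 fold change was lower in the HIP than in the EC by 0.52 (SE 0.198, unadjusted p = 0.0191, adjusted p = 0.9998, edgeR). The lowest Ts65Dn library of Kcng1 in each region was that of replicate 3, and without that mouse the term was -0.63 (adjusted p = 0.745, edgeR). Kcnb2 and Kcnv1, called in the EC alone by edgeR with all mice, had interaction terms of 0.04 ± 0.105 SE and -0.03 ± 0.0740 SE. Their genotype differences were thus not shown to differ between the regions.

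Genes whose products work with Kv channels were read from lists named for that role. Of the auxiliary subunits other than Kv beta, 9 of 11 were tested in the HIP, and 1 was called as lower in Ts65Dn mice (1.04% of all genes tested were called), Kcnip4, a KChIP that binds Kv4 channels. It had 67.0, 72.2 and 76.9 CPM in wt and 56.6, 63.1 and 65.8 CPM in Ts65Dn mice, and the groups did not overlap (log2 fold change -0.22 ± 0.0459 SE, adjusted p = 0.0377, edgeR). In the EC, where 0 of 8 were called, Kcnip4 had 63.8, 70.5 and 80.6 CPM and 54.2, 62.2 and 65.7 CPM (log2 fold change -0.22 ± 0.0648 SE, adjusted p = 0.0799, edgeR). Without the mouse labelled Ts65Dn replicate 3 its log2 fold change was -0.23 in the HIP (adjusted p = 0.0363, edgeR) and -0.21 in the EC (adjusted p = 0.107, edgeR). Of 10 proteins that cluster Kv channels at the axon initial segment and beside nodes, 0 were called in the HIP and 1 in the EC, where 2.50% of all genes tested were called. The gene was Sptbn4 (beta IV spectrin). It had 114, 116 and 129 CPM in wt and 129, 139 and 155 CPM in Ts65Dn mice (log2 fold change 0.25 ± 0.04995 SE, adjusted p = 0.0229, edgeR). With Ts65Dn replicate 3 left out, its log2 fold change was 0.22 (adjusted p = 0.0278, edgeR). For Kcnip4 and Sptbn4 no other alternative fit is given here, so these calls are not shown to be firmer than those of Kv genes. Of 30 other potassium channel genes tested, none was called in the HIP (0 of 30), and the EC had 1 call, the triplicated Kcnj6, which encodes a G protein-gated inward rectifier. It had 26.2, 28.9 and 33.2 CPM in wt and 28.8, 46.6 and 49.0 CPM in Ts65Dn mice (log2 fold change 0.55 ± 0.111 SE). Without the mouse labelled Ts65Dn replicate 3, Kcnj6 was at 0.65 in the HIP (adjusted p = 0.00197, edgeR) and 0.65 in the EC (adjusted p = 6.62e-05, edgeR). The auxiliary gene Kcne2, also triplicated, was at 0.81 ± 0.843 SE in the HIP and was not called (adjusted p = 0.704, edgeR). Kcne1 and Kcnj15, which the paper places in the same chromosome 16 segment, had 24 and 72 counts in total and were not tested.

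Between regions, 3 of 9 auxiliary subunits were higher and 3 of 9 lower in the HIP of wt mice, near the 31.0% and 30.3% of all genes tested. Dpp10, a DPP partner of Kv4 channels, had 45.5, 60.3 and 80.7 CPM in the wt HIP and 313, 329.8 and 370.3 CPM in the wt EC (log2 fold change -2.43 ± 0.118 SE, adjusted p = 8.07e-08, edgeR). Its paralogue Dpp6 lay on the other side, with 412, 428 and 446 CPM and 293, 327 and 365 CPM (log2 fold change 0.38 ± 0.05004 SE). The axonal clustering proteins had 2 of 10 higher, Cntn2 and Lgi1, and 4 of 10 lower. The other potassium channel genes had 9 of 30 higher and 16 of 30 lower, beside 12 of 40 and 22 of 40 of the Kv genes and the same 31.0% and 30.3% of all genes tested.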

How the data were processed

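RNA of the HIP and EC of 6 Ts65Dn and 6 wt mice was sequenced as single-end reads of 50 bases. The methods describe the library kit as a ribosomal RNA depletion kit but also call the extracted molecules polyA RNA. The labels give poly-A selection. The authors aligned the reads with Hisat2 on GRCm38 and deposited raw counts per gene made with HTSeq-count and Ensembl release 99, without normalization. A further 4 tables hold the authors' own comparisons (fold changes and p-values from DESeq2 and FCROS) and were not used. Groups, regions and mice were taken from the sample labels. Gene symbols, exon lengths and coordinates were taken from GENCODE vM21 on GRCm38, where 55144 of 55385 gene identifiers matched, and the triplicated genes of the label check were those of chromosome 16 from Mrpl39 to the end and of chromosome 17 up to Pde10a.

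Counts were tested with edgeR 4.0.16 (filterByExpr, TMM, quasi-likelihood test, two-sided, Benjamini-Hochberg adjustment over all genes, threshold 0.05) in R 4.3.3. Tables were made with Python 3.11.15 and pandas 2.3.3. Genotype was tested on the 12 libraries of a region. Region was tested on the 12 libraries of a genotype and the interaction on all 24, with a term for each mouse, since titles number HIP and EC of a mouse alike and their deviations from the group means correlated in 6 of 6 wt mice (r from 0.252 to 0.455) and in 6 of 6 Ts65Dn mice (r from 0.171 to 0.493). The alternatives were DESeq2 1.42.0, its size factors, leaving out the low-count filter, a minimum of 10 counts in each library, removal of a trend on GC content and length, a fit with or without the replicate block, and each mouse left out in turn. The scripts were tested on simulated data. The depth given in the report limits genes such as Kcnv2 and Kcnq1, whose counts are few.

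The genes, families and lists were chosen with earlier results of these data known. Values are given for principal neuronal Kv genes, for genes called between genotypes or in the interaction, for the 3 lowest unadjusted p-values of each genotype comparison, for the 5 largest differences in each direction between regions of wt mice, and for the highest and the lowest gene per length. Some genes of these sets are not reported here. Kcnh8 is in the set by the regional rule, while Kcna5, Kcng1 and Kcnh3 were added after their values were seen. The same holds for the genes named from the auxiliary, clustering and other potassium channel lists. Promoter sequences are those of RefSeq on GRCm38.p6.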

Additional observations from a re-analysis of the deposited data

Results flagged for a closer look

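In 116 groups of 6 libraries (29 Kv genes in 4 groups), 5 held a library whose distance to its nearest neighbour was, as a share of the group's range, over Dixon's critical value for 6 values at the 95% level, a limit that chance passes in about 1 of 20 groups. The wt HIP library of replicate 4 was one in 3 of these cases. Kcng4, a Kv6 subunit gene, had 23.4 CPM there and 10.6 to 13.1 CPM in the other wt HIP libraries. Kcnh8, the Kv12 gene that was higher in the HIP, had 2.54 CPM there and 0.6253 to 1.11 CPM in the others. Kcnq5, an M-current gene, had 92.9 CPM there and 105 to 111 CPM in the others. Kcnh8 was also far from the rest in the Ts65Dn HIP library labelled replicate 3, with 1.94 CPM against 0.826 to 1.24 CPM, the mouse in which triplicated genes were at the wt level. Kcnv2 had 0.0733 CPM in wt EC replicate 5 and 0 CPM in the other 5 wt EC libraries, a level of single reads.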

How the results depend on the processing

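Between genotypes the number of Kv genes called in the HIP (0 with edgeR) was 2 with DESeq2 (Kcnv1 included) and 0 to 1 with 1 mouse left out, where it was 1 without Ts65Dn replicate 5 (Kcnv1). In the EC (3) it was 5 with DESeq2, 1 with no filter on low counts (Kcnb2), 0 with the trend on GC content and length removed, and 0 to 3 with 1 mouse left out, where at least 1 gene was called only in the fits that left out wt replicate 2 (2 genes) or the mice labelled Ts65Dn replicate 3 (1) and replicate 6 (3). The cause was not tested. The interaction (0) had 1 call with no filter on low counts, Kcng1. The counts between regions stayed within 1.5 times under each alternative, at 12 to 13 higher and 20 to 22 lower in wt mice and 11 to 12 higher and 20 to 23 lower in Ts65Dn mice with 1 mouse left out. Kcng3 and Kcnd3 in wt mice were each called in 2 of 6 such fits, and in Ts65Dn mice Kcnc2 in 2 and Kcnd3 in 1 of 6. No value called for a gene changed its sign.

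With the replicate block between genotypes, 0 Kv genes were called in the HIP or the EC, where Kcnb2 was at -0.31 and Kcnv1 at -0.28 (log2 fold change). Deviations of same-numbered wt and Ts65Dn mice were counted as correlated in 2 of 6 HIP pairs (r from -0.273 to 0.230). For EC pairs the count was 1 of 6 (r from -0.151 to 0.205). The cutoff behind these counts is not given here. Of the libraries, 1 of 12 (HIP) and 2 of 12 (EC) correlated best with their own number. Whether same-numbered mice shared a litter or a processing batch was not tested, so the fit with the block is not set aside. Without the mouse term, 12 Kv genes were higher and 19 lower in the HIP of wt mice, and 12 and 20 in Ts65Dn mice.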
